A study of Mus musculus with 2 samples.

Results

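Neutrophils that carried RNA of the secondary granules were examined in single lung cells from a sham operation and from hepatic ischemia-reperfusion (HIR), an operation that stops the blood supply of the liver for a time and lets it return. The cells were chosen from measured values. A cell barcode was a member when it had at least 200 genes, at most 20% of its UMIs (molecule tags that count captured transcripts once each) in mitochondrial genes, at least 5% in S100a8 and S100a9 together and at least 0.1% in Camp and Ngp together. Of 20218 barcodes, 644 were members, 109 in the sham library and 535 in the HIR library. Both libraries were made with 10x Genomics droplets from the lungs of Wild type mice, one after Sham surgery and the other 6 h after Hepatic ischemia-reperfusion. The sources used here give no strain, sex, age or number of animals. The labels name the mouse, but all 32883 features carry rat Ensembl identifiers (ENSRNOG), and the symbols below are those of the feature tables. Each group is 1 library, without replicates, and no difference could be tested between conditions. Each range in parentheses after a share or a ratio is a 95% interval of the counting error alone.

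Neutrophils fill their granules in sequence as they mature in the bone marrow. Primary granules, with myeloperoxidase and elastase, are made first, followed by secondary granules, with cathelicidin (Camp), neutrophilic granule protein (Ngp), lipocalin 2 (Lcn2) and lactoferrin (Ltf), and then by gelatinase (Mmp9) granules and secretory vesicles. The transcription factor C/EBP epsilon (Cebpe) drives the genes of the secondary granule, whose RNA is high in the maturing marrow neutrophil and low in the mature blood neutrophil. S100a8 and S100a9 form calprotectin, the main cytosolic protein of neutrophils.

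The members carried the neutrophil markers that the rule did not use. Csf3r (ENSRNOG00000008759), the receptor for granulocyte colony-stimulating factor, stood at 218 CPM (UMIs of the gene scaled to a common total per library, so that levels can be set side by side) in sham members and 351 in HIR members, against 7.15 and 14.7 in kept barcodes with less than 5% S100a8 and S100a9. Mmp8 (ENSRNOG00000009907), the collagenase of the secondary granule, stood at 3484 and 3250 CPM, against 0.993 and 5.58. Ltf, a defining secondary granule gene, and Mpo, a defining primary granule gene, were at 0 UMIs in the members of both libraries, so the name rests on Camp, Ngp and the other granule genes below. S100a8 took 155487 CPM in sham and 194245 in HIR members and S100a9 191416 and 187880. Camp (18444 and 3299 CPM) and Ngp (13581 and 384 CPM) chose the cells, and their levels are given only as a description.

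Depth and cell quality differed between the libraries. The sham library held 59566745 UMIs over 10719 barcodes and the HIR library 50801778 over 9499, and 9438 and 8593 barcodes passed the gene and mitochondrial limits. Members had a median of 2286 UMIs in sham and 3132 in HIR, and a median of 5.98% and 5.42% mitochondrial UMIs. Doublet calls fell on 3 sham and 27 HIR members, and on 864 of 9438 sham and 668 of 8593 HIR kept barcodes. The libraries shared 24 barcodes, none of them a member. Free RNA, estimated from hemoglobin, surfactant and immunoglobulin genes, came to 2.24% of UMIs in sham and 9.42% in HIR members. The gap came mostly from hemoglobin. Erythroid markers stood at 532 CPM in sham and 2079 in HIR members, against 14409 and 5748 in kept barcodes with less than 5% S100a8 and S100a9. The surfactant gene Sftpc was close in the members of both libraries, as given below, so the gap does not hold for free RNA of every origin. A sham member with 17973 UMIs, 0.751% Camp and Ngp and a doublet call stood apart, and values without it are given where it matters.

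Members made up 1.15% (0.949 to 1.39) of kept sham barcodes and 6.23% (5.72 to 6.76) of kept HIR barcodes, a ratio of 5.39 (4.38 to 6.69). All barcodes with at least 5% S100a8 and S100a9 were 3.61% of kept barcodes in sham and 16.4% in HIR (341 and 1409 barcodes), a ratio of 4.54 (4.03 to 5.12). Within these S100a8 and S100a9 barcodes, members were 32.0% (27.0 to 37.2) in sham and 38.0% (35.4 to 40.6) in HIR, a ratio of 1.19 (0.965 to 1.47). The interval of this ratio takes members as a rare part of the barcodes. It is too wide for shares this large, and nothing is read from its including 1. Some members passed on few UMIs of Camp and Ngp: 11 sham and 20 HIR members held 1, and 21 and 63 held 2. At 0.1 to 0.3% the median was 2 such UMIs in sham and 4 in HIR. With at least 3 required, 77 sham and 452 HIR members remained, 22.6% and 32.1% of S100a8 and S100a9 barcodes. The ratio was then 1.42 among these barcodes and 6.45 among kept barcodes. After each barcode was thinned to 1000 UMIs, 49.4% and 49.6% passed the threshold, leaving out 72 sham and 126 HIR barcodes that were too shallow. At that depth the threshold is 1 UMI of Camp or Ngp. At full depth, any such UMI was seen in 5.16% of sham and 7.80% of HIR kept barcodes with less than 5% S100a8 and S100a9. The larger share of members among HIR barcodes stood beside a larger share of S100a8 and S100a9 barcodes as a whole. At full depth, 0.1% Camp and Ngp was met by 1 of 817 sham and 0 of 512 HIR B cell barcodes (the latter allows up to 0.586%). Their medians were 2221 and 2501 UMIs. The threshold was met by 0 of 2590 sham (up to 0.116%) and 3 of 2281 HIR endothelial barcodes, with medians of 3130 and 2835 UMIs.

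The spread of Camp and Ngp among members differed in shape. Among sham members 61 held 0.1 to 0.3% of their UMIs in Camp and Ngp, 20 held 0.3 to 1%, 5 held 1 to 3% and 23 held 3% or more, up to 10.1%. HIR members were fewer at each higher range, with 357, 158, 18 and 2 cells in the same ranges and a maximum of 4.34%. Cells at 3% or more were 21.1% (13.9 to 30.0) of sham members and 0.374% (0.0453 to 1.34) of HIR members. As a share of all kept barcodes they were 0.244% in sham and 0.0233% in HIR, a ratio of sham over HIR of 10.5 (2.59 to 91.6). Cells below 0.3% went the other way, with 0.646% and 4.15% of kept barcodes and a ratio of HIR over sham of 6.43 (4.89 to 8.58), and so did cells at 0.3 to 1%, with a ratio of 8.68 (5.43 to 14.6). At 1000 UMIs per barcode, 10.8% of sham and 1.40% of HIR S100a8 and S100a9 barcodes held at least 1% Camp and Ngp, a ratio of sham over HIR of 7.68 (4.13 to 14.7). Ngp was seen in all 23 of the sham cells at 3% or more, and in 2 of the 81 sham members under 1%. In HIR it was seen in 37 of 515 members under 1%.

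**Figure D1:**
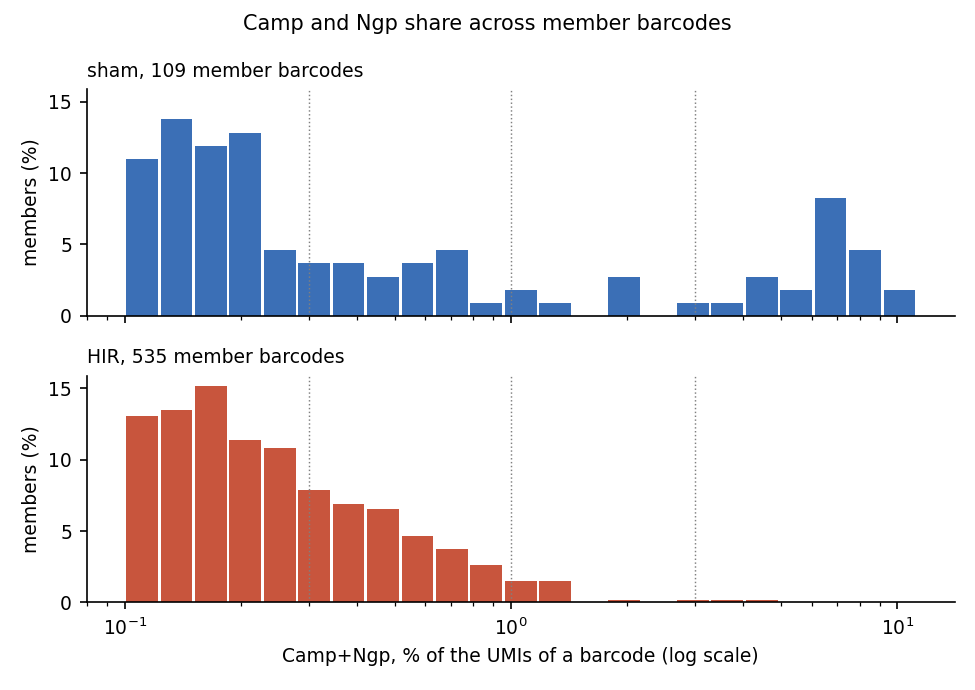
Histogram of the share of UMIs in Camp and Ngp in each member barcode (horizontal axis, %, log scale), with the percentage of the library's members in each bin on the vertical axis, for sham (top, 109 members) and HIR (bottom, 535 members). Dotted lines mark 0.3, 1 and 3%; 23 sham members and 2 HIR members lie at 3% or more.

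The 23 sham cells at 3% or more were deep, with a median of 7096 UMIs (lowest 3282, highest 11769), against 1768 in sham members under 1%. None was a doublet call. They held 43.9% of all UMIs of sham members, while the 2 such HIR cells (3936 and 5114 UMIs) held 0.487%. Sums over all members therefore weigh these cells far more in sham than in HIR. Gene lists below are given for all members and for the 81 sham and 515 HIR members under 1%, a limit chosen after the values were seen, and so are single genes where the sets differ by over 1.5 times or in their side of 2-fold.

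Within each library, Lcn2 and Cd177 of the secondary granule list were higher at 3% or more Camp and Ngp than at 0.1 to 0.3%. So were Tf and Cebpe, which were on other lists. Retnlg, also on the secondary granule list, was lower at 3% or more in both libraries, as given below. Lcn2 (ENSRNOG00000013973), which binds the iron carriers of bacteria, went from 8.19 CPM in sham members at 0.1 to 0.3% through 327 and 327 to 9045 CPM at 3% or more. The first of these values is 1 UMI, and without the deepest sham barcode, which held 17 of the 22 UMIs at 0.3 to 1%, that step stood at 101.4 CPM. In HIR the same steps were 1043, 2750, 5682 and 8729 CPM. The top steps were close in the libraries and the bottom steps far apart. Cd177 (ENSRNOG00000022669), a surface protein of the secondary granule, went from 41.0 through 149 and 1104 to 1647 CPM in sham and from 153 through 401 and 967 to 1989 in HIR. Tf (ENSRNOG00000030625), transferrin, the iron carrier of plasma, went from 2383 through 4401 and 9773 to 13185 CPM in sham and from 2895 through 5654 and 11103 to 13481 in HIR. Unlike Lcn2, Tf had values close to each other in the libraries at every step. Cebpe (ENSRNOG00000014282) went from 24.6 through 164 and 327 to 561 CPM in sham, and in HIR it stayed at 8.09, 26.4 and 21.7 before 331 CPM, the last from 3 UMIs in 2 cells. The cells were ordered by Camp and Ngp of the same libraries, so these steps are descriptions.

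Other genes ran against the Camp and Ngp share or did not follow it in both libraries. Il1b (ENSRNOG00000004649), the inflammatory cytokine interleukin 1 beta, stood at 5136, 1725, 1595 and 483 CPM along the sham steps and at 4863, 2643, 1456 and 221 along the HIR steps. Csf3r stood at 467, 223, 40.9 and 59.7 CPM in sham and at 412, 281, 141 and 0 in HIR, where 0 came from 2 cells. Both were lowest at the top step in HIR, while in sham the lowest Csf3r was at 1 to 3%. Retnlg (ENSRNOG00000001943), a resistin-like secreted protein of neutrophils, peaked in the middle, with 6348, 11879, 10631 and 1969 CPM in sham and 4608, 5729, 3238 and 442 in HIR. Sod2 (ENSRNOG00000019048), the mitochondrial superoxide dismutase, was level over the first 3 sham steps (1827, 1502 and 2167 CPM) and low in the last (388), and in HIR it stood at 5442, 4751, 3346 and 773 CPM. Serpinb1a (ENSRNOG00000016581), an inhibitor of elastase and cathepsin G, set the libraries apart at every step, with 131, 223, 940 and 1336 CPM in sham and 6432, 8445, 7420 and 3757 CPM in HIR. Without the deepest sham barcode its sham value at 0.3 to 1% was 122 CPM.

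**Figure D2:**
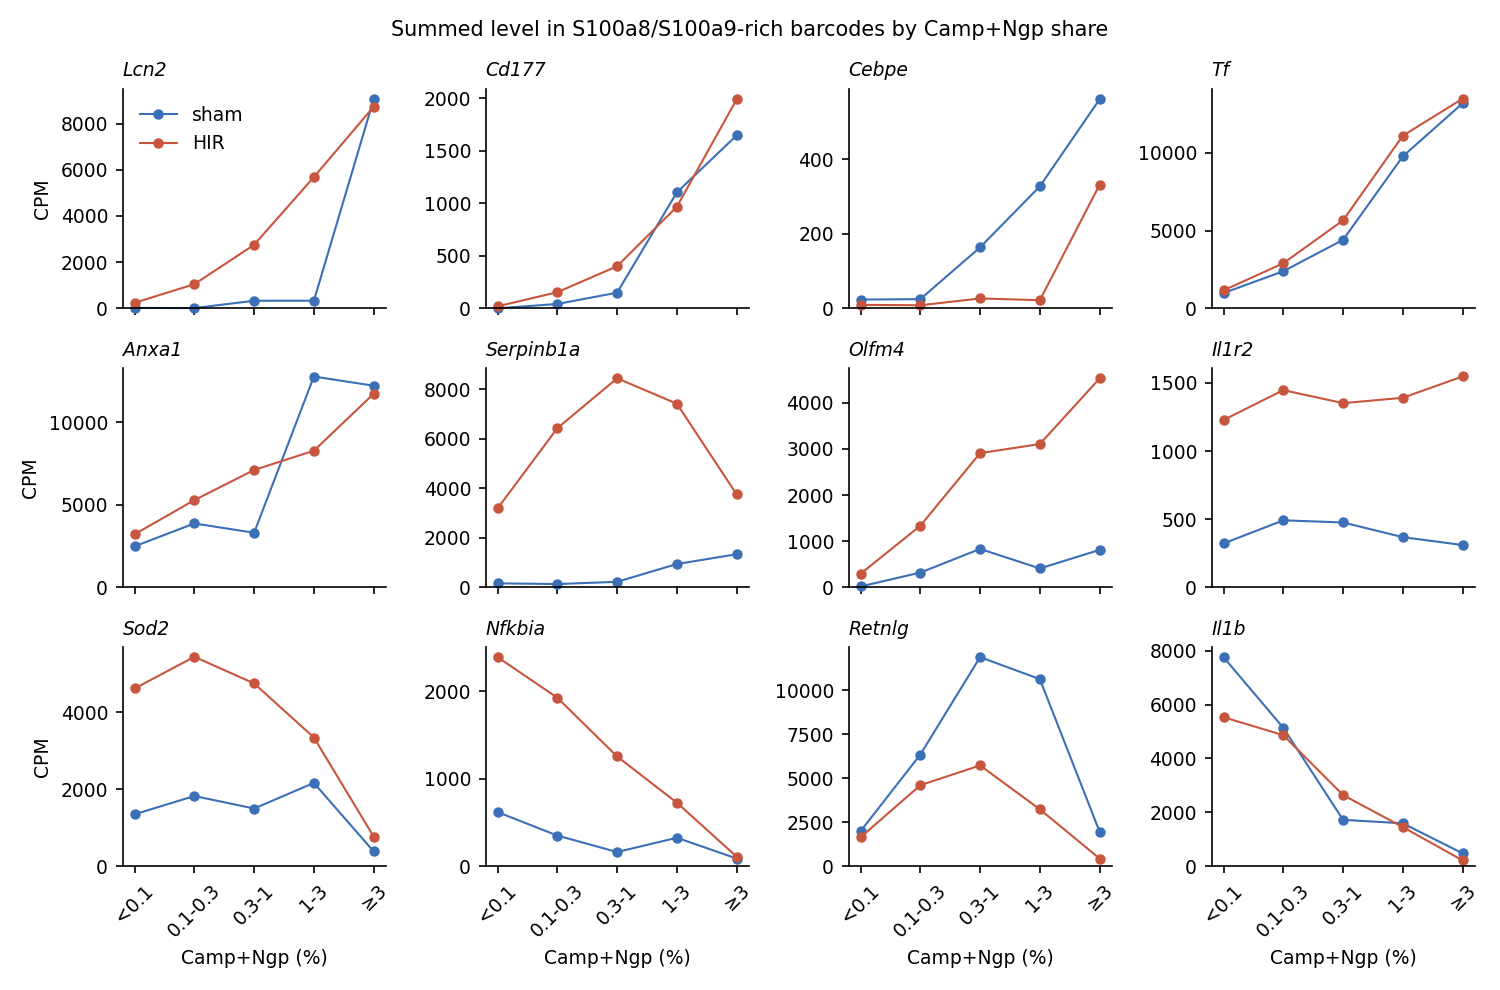
Levels (vertical axes, CPM) of selected genes in barcodes ordered by their share of Camp and Ngp (horizontal axes: S100a8 and S100a9 barcodes below 0.1%, then members at 0.1 to 0.3%, 0.3 to 1%, 1 to 3% and 3% or more), sham in blue and HIR in red, 1 library each. The HIR point at 3% or more comes from 2 cells; Tf runs alike in both libraries (13185 and 13481 CPM at the top step), Serpinb1a does not (1336 and 3757 CPM).

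Because Lcn2 moved with the genes that chose the cells in both libraries, the promoters of these genes are shown. The mouse windows of RefSeq (build GRCm38.p6, 250 bases before to 50 after the start, written 5′ to 3′ on the strand of the gene) were searched on both strands for TTNNGNAA (TTNCNNAA on the other strand), a core of C/EBP binding sites. Matches are in capitals. Camp (chr9:109849407-109849706, minus strand) held 0 matches, Ngp (chr9:110419558-110419857, plus strand) held 3, which begin 138, 102 and 11 bases before the start, and Lcn2 (chr2:32387690-32387989, minus strand) held 1, which begins 216 bases before it.
Camp: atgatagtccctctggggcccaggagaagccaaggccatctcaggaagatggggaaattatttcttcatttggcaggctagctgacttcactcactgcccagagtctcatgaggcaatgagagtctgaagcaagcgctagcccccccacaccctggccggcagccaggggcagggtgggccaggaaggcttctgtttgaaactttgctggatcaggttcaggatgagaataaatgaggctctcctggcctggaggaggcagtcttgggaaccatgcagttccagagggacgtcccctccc
Ngp: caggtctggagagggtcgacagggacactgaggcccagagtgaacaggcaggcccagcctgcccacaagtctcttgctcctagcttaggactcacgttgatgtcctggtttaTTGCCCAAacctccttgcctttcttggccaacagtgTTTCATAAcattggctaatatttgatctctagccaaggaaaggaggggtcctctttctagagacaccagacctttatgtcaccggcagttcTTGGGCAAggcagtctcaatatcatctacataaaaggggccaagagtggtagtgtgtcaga
Lcn2: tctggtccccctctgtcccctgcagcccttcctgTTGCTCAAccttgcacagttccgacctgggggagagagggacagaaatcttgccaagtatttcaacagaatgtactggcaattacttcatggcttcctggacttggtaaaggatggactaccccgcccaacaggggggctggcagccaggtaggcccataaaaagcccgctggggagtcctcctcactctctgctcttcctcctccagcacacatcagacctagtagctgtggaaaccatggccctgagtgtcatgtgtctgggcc
The core occurs in 40.7% of the 32851 promoter windows of the table, so a match is common, and it is a description, not a site.

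Among all members, the named genes above sham were led by Isg15, Serpinb1a and Nfkbia. Those below it were led by Cebpe, Cybb and Qpct, which in sham members were higher at 3% or more Camp and Ngp than under 1%. Of 2878 genes with a mean of at least 20 CPM, 163 (5.66%) were over 2-fold higher in HIR and 221 (7.68%) over 2-fold lower, as log2 ratios after 10 CPM was added to both values. Of all these genes 39.5% were higher in HIR by any amount. Their median was -0.16, and with ratios centred on it 225 were higher and 154 lower. Isg15 (ENSRNOG00000021802), a ubiquitin-like interferon product, stood at 26.2 CPM in sham (10 UMIs) and 414 in HIR (769 UMIs), 15.8-fold (8.54 to 33.1) higher. Serpinb1a stood at 729 and 7165 CPM, 9.83-fold (8.73 to 11.1) higher. Nfkbia (ENSRNOG00000007390), which keeps NF-kB out of the nucleus, stood at 202 and 1627 CPM, 8.06-fold (6.43 to 10.2) higher. Behind these came Abcb10, a mitochondrial transporter, Clec4b2, a C-type lectin receptor, and Alpl, the alkaline phosphatase of secretory vesicles. Scimp, an adaptor of Toll-like receptor signalling, Arid5a, a protein that stabilizes cytokine messages, Nudt9, an ADP-ribose hydrolase, Snx18, a membrane-sorting protein, and the NF-kB cofactors Bcl3 and Nfkbiz completed the 12 named genes, all over 4-fold by log2 ratios from 2.20 to 2.85. Under 1% the log2 ratios of Scimp, Nudt9 and Bcl3 were 1.79, 1.77 and 1.68, and that of Abcb10 was 2.26.

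Below sham, Cebpe stood at 304 and 16.7 CPM (116 and 31 UMIs), 18.2-fold (12.2 to 28.0) higher in sham. Cybb (ENSRNOG00000003622), the catalytic subunit of the NADPH oxidase, stood at 325 and 28.5 CPM, 11.4-fold (8.20 to 16.0) higher in sham. Qpct, which cyclizes N-terminal glutamine, stood at 110 and 4.84 CPM, 22.7-fold (10.9 to 53.1) higher in sham, and under 1% it had 3 and 9 UMIs, a ratio of 3.09 (0.539 to 12.4). Their sham RNA sat in the cells richest in Camp and Ngp, with 561, 650 and 221 CPM at 3% or more and 73.9, 68.7 and 15.8 CPM in sham members under 1%. Prodh1, a proline dehydrogenase, Bola1, a mitochondrial protein, Gyg1, which primes glycogen, Ceacam1, an adhesion receptor, and Ifitm1 were likewise higher in the cells at 3% or more. The other named genes, Ccl2, Stfa2l1, Hes1 and Aif1, were lower there: Hes1 stood at 23.9 CPM and Aif1 at 35.8 CPM in those cells, against 238 and 607 CPM in sham members under 1%. Stefins such as Stfa2l1 and the Ifitm genes have close copies, between which counts could be split.

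**Figure D3:**
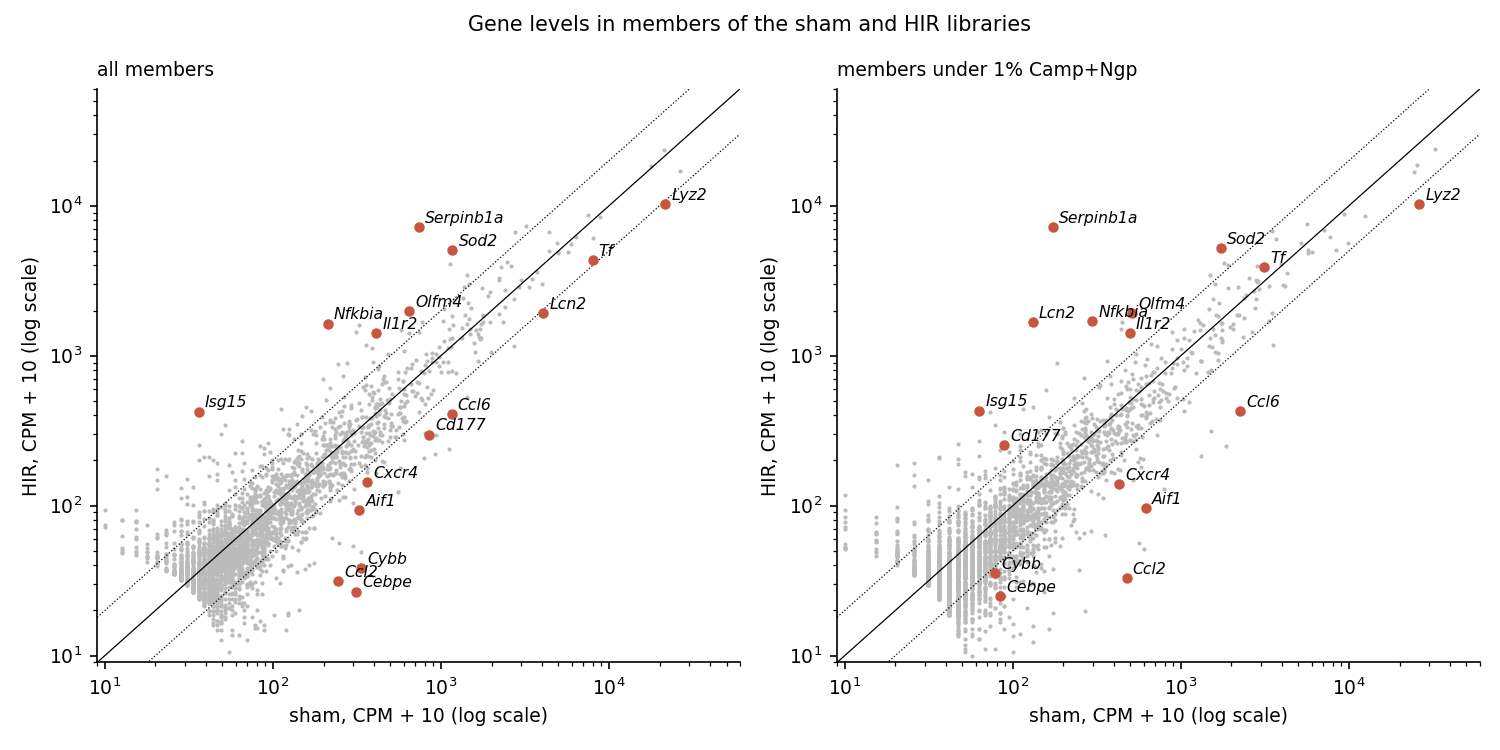
Level of each measured gene in sham members (horizontal axis) and HIR members (vertical axis), CPM plus 10 on log scales, all members, 1 library each. Dotted lines mark 2-fold; Serpinb1a (729 and 7165 CPM) lies far above the upper line, Cebpe (304 and 16.7 CPM) far below the lower.

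Among members under 1%, the counts leaned further toward sham. Of 3070 measured genes, 145 (4.72%) were over 2-fold higher in HIR and 439 (14.3%) over 2-fold lower. Of all these genes 29.2% were higher in HIR by any amount. Their median was -0.35, and centred on it the split was 257 higher and 194 lower. S100a8 and S100a9 took a median of 26.0% of the UMIs of these cells in sham and 39.3% in HIR. That leaves a smaller part of the total, and so lower CPM, to the other genes in HIR. Its part in the lean was not tested, but the count of genes higher in HIR without the rule's genes in the total is given at the end. The largest differences in HIR were Serpinb1a, with 164 and 7170 CPM (31 and 12595 UMIs), 43.8-fold (30.8 to 64.5) higher, and Lcn2, with 121 and 1669 CPM (23 and 2932 UMIs), 13.7-fold (9.14 to 21.7) higher. Of the 23 sham UMIs of Lcn2, 74% came from the deepest barcode. Without the deepest member of each library Lcn2 stood at 35.0 and 1678 CPM, 47.9-fold (22.0 to 131) higher, and Serpinb1a at 128 and 7228 CPM. Gpr84 (ENSRNOG00000036834), a receptor for medium-chain fatty acids, had 0 UMIs in sham and 107 CPM in HIR (188 UMIs), at least 6.75-fold higher against a floor of 3 UMIs for the sham sum.

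Ltb4r, the receptor for leukotriene B4, stood at 15.8 and 182 CPM (3 and 319 UMIs), a ratio of 11.5 (3.89 to 55.9). Stom (stomatin, a membrane protein of the granules) stood at 63.4 and 410 CPM, 6.48-fold (3.68 to 12.6) higher. Map4k1, a kinase of blood cells, stood at 174 and 880 CPM, 5.05-fold (3.58 to 7.36) higher. Isg15, Alpl, Snx18, Nfkbia, Arid5a and Clec4b2, high among all members, were again among the 12 named.

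The largest differences toward sham in members under 1% were of mixed origin. Plac9, Mgp, Gsn and Pi16, genes of stromal cells, came mostly from the deepest sham barcode, which held 98.0%, 89.4%, 86.7% and 63.0% of their sham UMIs. Without the deepest member of each library, Mgp stood at 216 and 207 CPM, Gsn at 193 and 205, and Plac9 at 5.84 and 9.79, so those 3 genes were no longer over 2-fold apart. Pi16 stood at 58.4 and 18.4 CPM. Ccl2, the monocyte attractant, stood at 465 and 22.8 CPM, with 55% of its sham UMIs in a single barcode. Others were spread over more cells. Ccl6 (ENSRNOG00000030021), a chemokine of myeloid cells, stood at 2239 and 417 CPM, 5.37-fold (4.76 to 6.07) higher in sham, and at 2194 and 421 CPM without the deepest members. Stfa2l1, a cysteine protease inhibitor, stood at 555 and 46.1 CPM, 12.03-fold (8.91 to 16.3) higher in sham, with 37% of its sham UMIs in 1 barcode. Aif1, a calcium-binding protein of macrophages and other myeloid cells, stood at 607 and 86.5 CPM, and Hes1, a repressor downstream of Notch, at 238 and 27.3 CPM. S100a6, Eid1 and Ppp1r9b completed the 12.

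By granule class, the 4 measured genes of the primary granule list had a median log2 ratio of 1.21 over all members. Relative to all genes it was 1.37, with 4 of 4 higher in HIR and 2 over 2-fold, against 39.5% and 5.66% of all genes. Under 1% the median was 0.69, or 1.03 relative to all genes. There 3 of 4 were higher and 2 over 2-fold, against 29.2% and 4.72% of all genes. Those past 2-fold were Serpinb1a, an inhibitor and not itself a protease, and Elane (neutrophil elastase), with 15.7 and 67.3 CPM (6 and 125 UMIs), 4.28-fold (1.91 to 11.9) higher, and 3.26-fold (1.24 to 12.2) under 1%. Srgn, the proteoglycan that packs granule proteins, stood at 1340 and 2407 CPM over all members and at 2377 and 2430 CPM under 1%. The other 10 matched genes, Mpo among them, were under the filter.

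Secondary granule genes other than Camp and Ngp differed in direction between the sets of cells. Over all members 14 of 19 matched genes were measured, with a median of -0.28, 2 over 2-fold higher in HIR and 5 over 2-fold lower. Under 1% the median was 0.62, with 6 over 2-fold higher and 2 lower. Of all measured genes, 5.66% were over 2-fold higher and 7.68% lower over all members, and 4.72% and 14.3% under 1%. Relative to all genes the medians were -0.12 and 0.97. Members at 0.1 to 0.3% alone had a median of 1.13, with 8 of 14 over 2-fold higher and 1 lower, where 5.86% of all 3056 measured genes were higher and 14.3% lower. At 0.3 to 1% the median was 0.58, with 7 higher and 3 lower, against 7.67% and 27.3% of 2986 genes. Lcn2 stood at 4056 and 1902 CPM over all members, 2.13-fold (2.01 to 2.26) higher in sham, the reverse of its order under 1%. Cd177 did the same, with 834 and 288 CPM over all members and 79.2 and 244 CPM under 1%, 3.08-fold (1.84 to 5.54) higher in HIR. Hp, haptoglobin, the hemoglobin binder, stood at 663 and 575 CPM over all members and at 148 and 577 CPM under 1%, 3.90-fold (2.68 to 5.90) higher in HIR.

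Olfm4 (ENSRNOG00000013280), olfactomedin 4, which marks a subset of neutrophils, kept its order. It stood at 632 and 1985 CPM over all members, 3.14-fold (2.76 to 3.59) higher in HIR, and at 502 and 1913 CPM under 1%. Pglyrp1, a protein that binds bacterial peptidoglycan, stood at 1801 and 4122 CPM under 1%, 2.29-fold (2.05 to 2.56) higher. Lyz2 (ENSRNOG00000005825), lysozyme, was higher in sham in both sets, with 21645 and 10245 CPM over all members and 26158 and 10195 CPM under 1%, 2.57-fold (2.49 to 2.65). In S100a8 and S100a9 barcodes under 0.1% Camp and Ngp it stood at 29276 and 29538 CPM. Anxa1, annexin A1, stood at 7999 and 6089 CPM over all members and at 3665 and 5946 under 1%, and Orm1, an acute-phase protein, at 294 and 118 over all members and 79.2 and 120 under 1%. Mmp8 differed little, by 1.07-fold (1.01 to 1.14) toward sham over all members and 1.10-fold (1.01 to 1.20) toward HIR under 1%.

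Tertiary granule and secretory vesicle genes had medians of 0.25 over all members and 0.59 under 1% over 11 measured genes, or 0.41 and 0.94 relative to all genes. Mmp9, gelatinase B, stood at 868 and 1035 CPM over all members and at 618 and 938 under 1%, 1.52-fold (1.26 to 1.85) higher in HIR. Fpr2, a formyl peptide receptor, stood at 388 and 228 CPM over all members and at 116 and 211 under 1%. Alpl stood at 13.1 and 146 CPM (5 and 272 UMIs), 11.2-fold (4.73 to 34.7) higher. Slc11a1, a metal transporter of the phagosome, stood at 26.2 and 77.0 CPM, 2.94-fold (1.55 to 6.25) higher, and under 1% at 42.2 and 78.6 CPM, where the ratio of 1.86 (0.918 to 4.39) included 1. Fcgr3a, an Fc receptor for IgG, was the gene over 2-fold toward sham in both sets, with 60.3 and 2.69 CPM over all members (23 and 5 UMIs), and all its sham UMIs lay in 1 barcode.

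Of 13 measured granulocyte transcription factors, 11 were higher in HIR over all members, 2 of them over 2-fold, against 39.5% and 5.66% of all genes. The medians were 0.54 and, under 1%, 0.21, or 0.69 and 0.56 relative to all genes. Junb, an AP-1 subunit, stood at 1363 and 2847 CPM, and at 2165 and 2878 under 1%, where the ratio was 1.33 (1.20 to 1.47). Cebpb, the C/EBP factor of emergency granulopoiesis, stood at 734 and 1427 CPM and, under 1%, at 1188 and 1457. Stat3, which acts below the granulocyte colony-stimulating factor receptor, stood at 78.7 and 212 CPM, and at 116 and 218 under 1%. Cebpe was the only factor over 2-fold lower in HIR in both sets, with 73.9 and 14.8 CPM (14 and 26 UMIs) under 1%, 5.00-fold (2.41 to 9.92) higher in sham.

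Of 19 measured surface receptors of mature neutrophils, 14 were higher in HIR over all members (median 0.47) and 11 under 1% (median 0.10), against 39.5% and 29.2% of all genes. Relative to all genes the medians were 0.62 and 0.45. Il1r2 (ENSRNOG00000014378), the decoy receptor that traps interleukin 1, stood at 401 and 1411 CPM over all members, 3.52-fold (2.99 to 4.17) higher in HIR. Under 1% it was at 486 and 1412 CPM, and in S100a8 and S100a9 barcodes under 0.1% Camp and Ngp at 322 and 1227. Il1r2 showed no steady order by Camp and Ngp share, and along the 4 steps it lay between 310 and 491 CPM in sham and between 1351 and 1547 CPM in HIR. Ifngr1, a chain of the interferon gamma receptor, stood at 105 and 312 CPM, 2.98-fold (2.16 to 4.21) higher, and under 1% at 190.1 and 317 CPM, 1.67-fold (1.19 to 2.41) higher. Lilrb4, an inhibitory receptor, stood at 2.62 and 39.3 CPM (1 and 73 UMIs), a ratio of 15.0 (2.61 to 600.0), and of 7.76 (1.35 to 311) under 1%.

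Cxcr4, the receptor that holds neutrophils in the marrow and marks aged ones, stood at 351 and 134 CPM, 2.62-fold (2.11 to 3.25) higher in sham, and at 417 and 129 under 1%. Siglec5 and Fcgr2b, inhibitory receptors, stood at 128 and 54.9 CPM and at 55.1 and 14.5 CPM, 2.34-fold (1.63 to 3.32) and 3.79-fold (2.04 to 6.96) higher in sham, and 4.03-fold and 5.35-fold under 1%. Csf3r was close in both libraries under 1%, with 380 and 364 CPM and a ratio of sham over HIR of 1.04 (0.806 to 1.33). Clec4d, a C-type lectin, stood at 687 and 569 CPM under 1%.

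Adhesion and transmigration genes had medians of -0.19 over all members and -0.14 under 1%, each over 12 measured genes, and relative to all genes -0.03 and 0.21. Coro1a and Rac2, regulators of actin, stood at 2402 and 2095 CPM and at 1015 and 893 CPM. Ceacam1 stood at 144 and 28.0 CPM, 5.15-fold (3.46 to 7.68) higher in sham and 2.89-fold (1.46 to 5.35) under 1%, and under 1% Cd44, the hyaluronan receptor, stood at 528 and 229 CPM, 2.31-fold (1.83 to 2.88) higher in sham. Itgb1, the beta 1 integrin, stood at 63.4 and 24.5 CPM under 1% (12 and 43 UMIs), with 42% of the sham UMIs in a single barcode.

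Among cytokines and chemokines, 8 of 11 measured genes were higher in HIR over all members (median 0.70) and 6 of 11 under 1% (median 0.05), against 39.5% and 29.2% of all genes. Relative to all genes the medians were 0.85 and 0.39. Il1b stood at 2263 and 3902 CPM over all members, and at 3924 and 4049 under 1%, where the ratio of 1.03 (0.957 to 1.11) included 1. Osm, oncostatin M, stood at 1450 and 1751 CPM over all members and at 2371 and 1775 under 1%, 1.34-fold (1.21 to 1.48) higher in sham. Cxcl2, which attracts neutrophils through Cxcr2, stood at 572 and 1476 CPM, 2.58-fold (2.25 to 2.98) higher in HIR, and at 1040 and 1504 under 1%. Its relative Cxcl1 stood at 10.5 and 119 CPM (4 and 222 UMIs), 11.4-fold (4.39 to 42.2) higher, and had 3 and 221 UMIs under 1%.

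Ptgs2, the inducible cyclooxygenase, stood at 5.24 and 84.0 CPM (2 and 156 UMIs), a ratio of 16.0 (4.36 to 133), and of 8.30 (2.26 to 69.1) under 1%. Cxcl10, an interferon-induced chemokine, had 0 sham UMIs and 64.1 CPM in HIR (119 UMIs), at least 8.14-fold higher against a floor of 3 UMIs for the sham sum, and at least 4.28-fold under 1%. Toward sham, Ccl2 stood at 233 and 21.5 CPM and Ccl6 at 1146 and 396 CPM, 2.90-fold (2.57 to 3.26) higher in sham.

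The 7 measured NADPH oxidase genes had medians of -0.35 and, under 1%, -0.19, and relative to all genes -0.19 and 0.16. Cyba, the small membrane subunit, stood at 1683 and 1318 CPM, and Ncf4, a cytosolic subunit, at 582 and 669. Cybb under 1% stood at 68.7 and 25.6 CPM (13 and 45 UMIs), 2.68-fold (1.33 to 5.06) higher in sham, and in HIR S100a8 and S100a9 barcodes under 0.1% Camp and Ngp at 510 CPM.

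S100 and annexin genes other than those of the rule had medians of -0.48 and, under 1%, -0.27 over 9 measured genes, and relative to all genes -0.33 and 0.08. S100a6, a calcium-binding protein of many cell types, stood at 1495 and 306 CPM under 1%, 4.88-fold (4.21 to 5.65) higher in sham. S100a10 stood at 280 and 58.1 CPM and S100a4 at 137 and 28.5 CPM. Without the deepest members S100a6 stood at 1319 and 258 CPM and S100a10 at 181 and 41.5 CPM. Of the 26 sham UMIs of S100a4, 81% came from 1 other barcode. S100a11 stood at 3712 and 3579 CPM over all members and Anxa2 at 1172 and 1602.

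NF-kB feedback genes had the highest median of the lists drawn in the plot of list medians, 1.45 over all members (10 of 11 measured higher in HIR, 6 over 2-fold) and 1.14 under 1% (9 of 12 higher, 6 over 2-fold). Of all genes 39.5% and 29.2% were higher and 5.66% and 4.72% over 2-fold higher. Sod2 stood at 1159 and 5076 CPM, 4.38-fold (3.98 to 4.83) higher, and at 1711 and 5189 under 1%. Nfkbia under 1% stood at 285 and 1682 CPM, 5.90-fold (4.51 to 7.87) higher. Nfkbiz stood at 34.1 and 193 CPM and Bcl3 at 18.4 and 121 CPM, 5.65-fold (3.26 to 10.7) and 6.599-fold (3.15 to 16.6) higher, and Bcl3 was 3.90-fold (1.76 to 10.7) higher under 1%. Birc3, an inhibitor of apoptosis, stood at 5.24 and 67.3 CPM (2 and 125 UMIs), a ratio of 12.8 (3.48 to 107) and of 6.52 (1.77 to 54.5) under 1%, and Nfkb2, the p100 subunit, at 13.1 and 53.3 CPM. Ikbke, a kinase of the pathway, was the exception, with 15 and 13 UMIs, 5.62-fold (2.49 to 12.8) higher in sham and 9.99-fold under 1%. S100a8 and S100a9 barcodes under 0.1% Camp and Ngp had 11 of 12 measured genes of the list higher in HIR, against 50.4% of all genes there. In these barcodes Nfkbia stood at 620 and 2392 CPM and Sod2 at 1352 and 4619 CPM. Within members the level of Nfkbia was lower where Camp and Ngp were higher in HIR, with 1928, 1256, 728 and 110 CPM along the 4 steps.

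Interferon response genes had medians of 0.84 over all members (8 of 12 measured higher in HIR) and 0.39 under 1% (9 of 13), against 39.5% and 29.2% of all genes, with relative medians of 0.99 and 0.73. Oas1a, an antiviral sensor of double-stranded RNA, stood at 349 and 1170 CPM, and at 650 and 1195 under 1%, 1.84-fold (1.53 to 2.22) higher in HIR. Slfn4, a schlafen protein of myeloid cells, stood at 378 and 1112 CPM, and at 708 and 1144 under 1%. Isg15 under 1% stood at 52.8 and 420 CPM, 7.95-fold (4.30 to 16.7) higher, and Gbp2, a guanylate-binding protein, at 5.24 and 49.5 CPM over all members (2 and 92 UMIs). Ifitm1 and Ifitm2, membrane proteins that restrict virus entry, stood at 907 and 212 CPM and at 582 and 289 CPM over all members. Under 1% Ifitm1 remained higher in sham, 2.83-fold (2.26 to 3.53), and Ifitm2 was 1.53-fold (1.09 to 2.22) higher in HIR.

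Genes of the glucocorticoid response, which share Nfkbia with the NF-kB list and Il1r2 with the receptors, had medians of 0.54 and, under 1%, -0.11 over 16 measured genes, and relative to all genes 0.70 and 0.24. Dusp1, a phosphatase of MAP kinases, stood at 4405 and 6679 CPM over all members and at 7082 and 6865 under 1%. Zfp36, which destabilizes cytokine messages, stood at 385 and 896 CPM, 2.32-fold (1.96 to 2.77) higher in HIR and 1.72-fold (1.40 to 2.13) under 1%, and Cdkn1a, the cell cycle inhibitor p21, at 49.8 and 138 CPM. Tgm2, a transglutaminase, stood at 39.3 and 8.61 CPM, with 93% of its sham UMIs under 1% in a single barcode. Genes of dissociation and heat shock, a handling signature, had medians of 0.36 and, under 1%, -0.12, and relative to all genes 0.52 and 0.23. Of these, Jun stood at 1460 and 2999 CPM and, under 1%, at 1579 and 2994. Their part in the NF-kB difference was not tested.

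Survival and death genes had medians of 0.01 and, under 1%, -0.35, close to that of all genes. Bcl2l1, the survival factor Bcl-xL, stood at 23.6 and 90.4 CPM (9 and 168 UMIs), 3.83-fold (1.97 to 8.53) higher in HIR. Bcl2a1, a survival gene with close copies, stood at 343 and 174 CPM under 1%. Glycolysis and hypoxia genes had medians of -0.10 and -0.11, and relative to all genes 0.05 and 0.24. Aldoa and Ldha, glycolytic enzymes, were within 1.08-fold over all members, and Hk2, an inducible hexokinase, stood at 86.5 and 217 CPM, 2.51-fold (1.76 to 3.69) higher in HIR.

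Metal binding and redox genes had medians of 0.06 and, under 1%, 0.24. Fth1, ferritin heavy chain, stood at 3206 and 7276 CPM, 2.27-fold (2.14 to 2.41) higher in HIR, and at 5614 and 7496 under 1%. Prdx5, a peroxiredoxin, stood at 1038 and 2040 CPM, and at 481 and 2040 under 1%, 4.25-fold (3.45 to 5.29) higher in HIR. Tf stood at 7960 and 4310 CPM over all members and at 3100 and 3907 under 1%, and Prdx6 at 252 and 104 CPM over all members and 148 and 106 under 1%. Of cell cycle genes, 6 of 24 matched were measured, with medians of -0.20 and -0.44. Hmgb2, a chromatin protein, stood at 1977 and 1049 CPM, 1.88-fold (1.73 to 2.05) higher in sham, and Pcna, the DNA clamp, at 212 and 216 CPM. Early progenitor and promyelocyte genes were mostly under the filter, with 3 of 15 matched measured over all members, led by Npm1, a nucleolar protein, at 110 and 92.04 CPM.

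**Figure D4:**
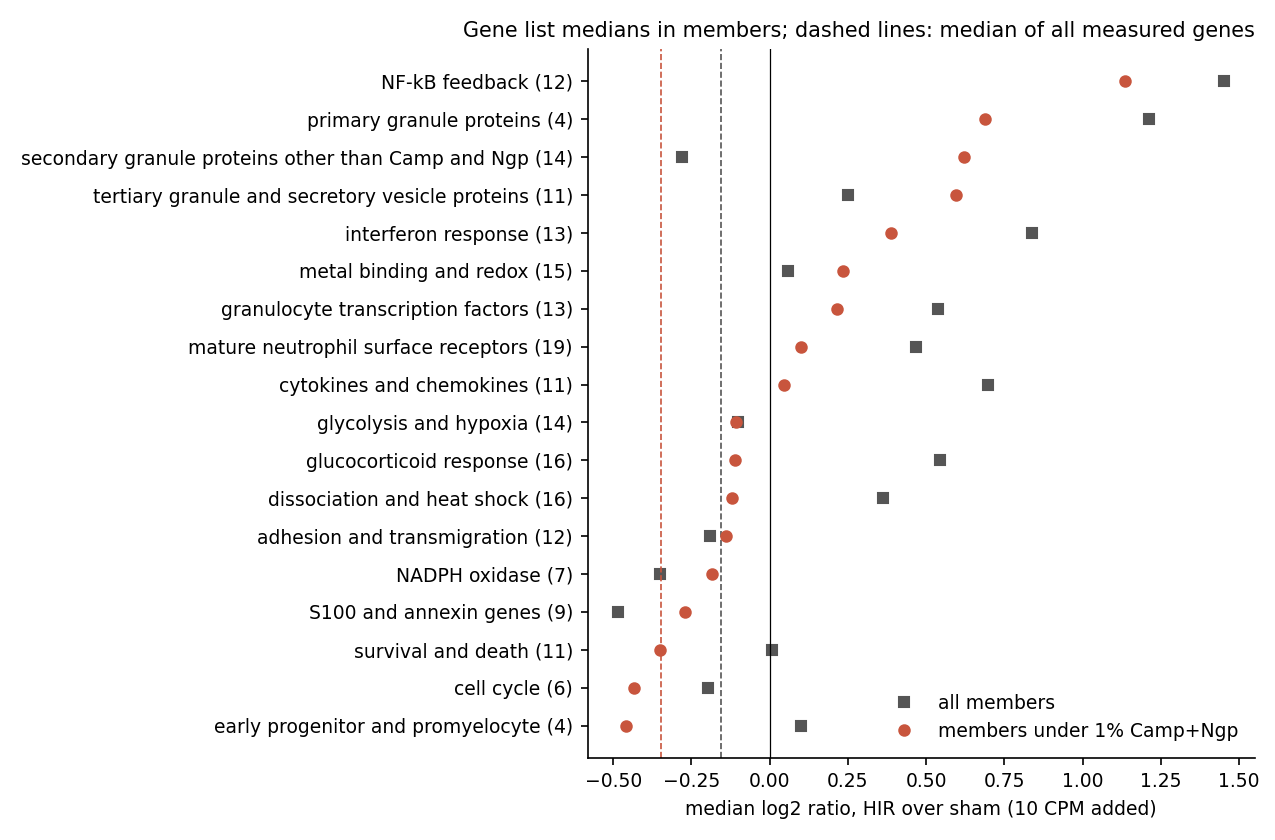
Median log2 ratio of HIR over sham (horizontal axis, 10 CPM added) of the measured genes of each list (vertical axis; in parentheses the number measured in members under 1% Camp and Ngp), for all members (grey squares) and members under 1% (red circles). Dashed lines mark the median of all measured genes (-0.16 and -0.35); secondary granule genes lie at -0.28 in one set and 0.62 in the other, NF-kB feedback genes at 1.45 and 1.14.

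The secondary granule list was also mostly higher in HIR in S100a8 and S100a9 barcodes under 0.1% Camp and Ngp (232 sham and 874 HIR barcodes). Their monocyte markers summed to 392 CPM in sham and 1798 in HIR, where Fn1 led with 1274. Their macrophage markers summed to 54.5 and 515, their NK cell markers to 12.97 and 211 and their airway markers to 589 and 2657. Doublet calls fell on 13 of the 232 and 89 of the 874, against 864 of 9438 sham and 668 of 8593 HIR kept barcodes. The part of other cell types and doublets in these values was not tested. There the list had a median of 0.83 with 7 over 2-fold higher in HIR and 0 lower, where 8.81% of all 3789 measured genes were over 2-fold higher and 6.02% lower. Lcn2 stood at 15.6 and 237 CPM, Olfm4 at 18.2 and 293, and Serpinb1a at 161 and 3190. At the threshold, Mmp8 and Retnlg were higher just inside than just outside, and Il1b lower. Between cells just outside (0.05 to 0.1%, 52 sham and 210 HIR) and just inside (0.1 to 0.2%, 44 and 246), Mmp8 went from 1274 to 2013 CPM in sham and from 1709 to 2441 in HIR, Retnlg from 2589 to 5142 and from 3235 to 4515, and Il1b from 7704 to 5078 and from 5805 to 5155. Cd177 went from 0 to 12.8 CPM in sham and from 57.5 to 117 in HIR. Lcn2 went from 20.7 to 12.8 CPM in sham and from 639 to 844 in HIR. Csf3r was lower just inside in both libraries, from 507 to 462 CPM in sham and from 468 to 444 in HIR.

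Markers of most other blood cells were lower in the members than in the other barcodes, eosinophil markers excepted. Summed over each list, B cell markers came to 23.6 CPM in sham and 58.7 in HIR, dendritic cell markers to 163 and 236, NK cell markers to 7.87 and 47.9, eosinophil markers to 2.62 and 2.15, platelet markers to 2.62 and 2.15, and macrophage markers to 70.8 and 97.4, against 1807 and 2119 for macrophage markers in kept barcodes under 5% S100a8 and S100a9. Monocyte markers came to 246 and 147 CPM, with 2 of 9 in sham and 1 of 9 in HIR at 0. Fibroblast and mural markers stood apart, with 1209 CPM in sham and 270 in HIR, and the deepest sham barcode held 93% of the Col1a1 and 78% of the Col3a1 in sham members under 1%. The 23 sham cells at 3% or more, which do not include that barcode, also summed to 990 CPM of these markers, led by Tagln at 447 CPM. The part of fibroblast and mural cells in the differences above was measured only by leaving the deepest barcode out. Erythroid markers came to 532 and 2079 CPM, against 14409 and 5748 CPM in the other barcodes. The alveolar type 2 marker Sftpc stood at 275 and 303 CPM, against 21380 and 18799 in the other barcodes, but Napsa, an aspartic protease on the same list, stood at 2606 and 3966 CPM in members, above its 670 and 801 CPM there.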

How the data were processed

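UMI counts per gene and barcode were deposited by the authors as 2 filtered 10x matrices, 1 per library. Per the submitters' processing notes, Cell Ranger 6.0, STAR and Seurat 4.0 were used with mm10. The matrix headers name cellranger 5.0.0, and every feature identifier is a rat one. Which annotation was counted is not given in the sources used here.

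Kept barcodes had 200 genes or more, with 20% or less of their UMIs mitochondrial. UMIs were summed over the cells of a set in each library and scaled to CPM. Genes with a mean of at least 20 CPM were measured, and log2 ratios used 10 CPM as pseudocount. Camp, Ngp, S100a8 and S100a9 were left out of the gene comparisons. Share intervals are Clopper-Pearson intervals. Ratio intervals are exact conditional intervals for Poisson counts, which are too wide for a ratio of large shares. UMI sums over cells carry cell-to-cell spread that these do not cover. Doublets were not removed. As an alternative, the top Scrublet scores, 0.8% per 1000 barcodes, were left out. The scripts were checked on simulated data.

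Named genes were the 12 largest log2 ratios in each direction among genes with at least 100 CPM in either library, 50 UMIs over both, an interval that left out 1 and, in the higher library, a CPM of at least 50% of that in kept barcodes under 5% S100a8 and S100a9. Markers of other cell types and ribosomal, mitochondrial, hemoglobin, sex-linked, immune receptor and unnamed features were left out. In each list the 2 to 4 highest genes and those past 2-fold whose interval left out 1 were also named. Genes shown by Camp and Ngp range, the markers beside them and the split at 1% were chosen after values were seen. The members and gene lists were chosen with earlier results of these data known. Symbols without a match were not analysed here. Python 3.11.15, numpy 2.4.6, scipy 1.17.1, pandas 2.3.3, scanpy 1.11.5 and matplotlib 3.10.9 were used.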

Additional observations from a re-analysis of the deposited data

How the results depend on the processing

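No paired analysis was possible because each group has 1 library. With at least 0.5% Camp and Ngp required, the ratio of member shares, HIR over sham, was 2.20 among kept barcodes and 0.484 among S100a8 and S100a9 barcodes, with 246 genes higher and 404 lower in HIR, and in members under 1% 257 higher and 1131 lower. Among all members, genes lower in HIR numbered 375 after thinning to 1000 UMIs and 382 with the 4 genes of the rule left out of the total. They numbered 349 with a pseudocount of 1 CPM and 389 without a filter. With free RNA subtracted they numbered 432, by an estimate that differed between the libraries mostly through hemoglobin. With 50 CPM as pseudocount, 76 were higher and 51 lower, and under 1% 58 and 88. With a filter at 100 CPM, 64 were higher and 43 lower, and under 1% 46 and 75. Under 1%, genes higher in HIR numbered 232 after thinning, 273 with the rule's genes left out of the total and 273 without a filter, where 814 were lower. Median centring gave 257 higher and 194 lower under 1%.

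The secondary granule median of all members was -0.15 after thinning and -0.12 after median centring. The S100 and annexin median under 1% turned positive at 0.032 with 0.5% Camp and Ngp, 0.17 with 10% S100a8 and S100a9, 0.069 without doublet calls, 0.077 after median centring and 0.23 with the 100 CPM filter. The next alternatives were added after the data were seen. Keeping only members under 1% gave share ratios of 6.98 and 1.54, 439 genes lower, a secondary granule median of 0.62 and a dissociation median of -0.12, both reversed, and the glucocorticoid, survival and progenitor medians also turned negative, at -0.11, -0.35 and -0.46. Without the deepest member of each library, Plac9 was at 0.32 and Gsn at 0.083 under 1%, both reversed. The causes were not tested. Sham members under 1% were 81 cells with a median of 1768 UMIs.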
